A study of Rattus norvegicus with 24 samples.

Results

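The genes described here encode enzymes and membrane proteins of the lysosome. Of 36 names on the list, Ctsl and its older symbol Ctsl1 are 1 gene, so the list held 35 genes. They were found by gene symbol in the annotation of the array, taking the probe with the highest mean where a gene had several. There were 33 of the 35 genes measured, each by 1 probe, out of 27342 probes on the array. Ctsz and Gaa had no probe with that single symbol and were not analysed here. All 33 probes passed the filter on low values, which left 23240 probes for the tests. The list was divided into 8 genes taken as phagocyte-enriched (Ctsc, Ctsh, Ctsk, Ctss, Ctsz, Gpnmb, Laptm5 and Lgmn, of which 7 were measured) and 27 taken as ubiquitous (26 measured). The first were assigned for expression in macrophages and microglia, the second for presence in the lysosomes of most cells. These classes were assigned and not measured here. Ctsk, a cathepsin of osteoclasts, was put in the first, and Grn, made by both microglia and neurons, in the second.

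Expression was measured on 24 Affymetrix Rat Gene arrays, 1 for each animal, in thoracic propriospinal (TPS) neurons of female Long Evans rats aged 77 ± 10 days. TPS neurons link thoracic to lumbar segments of the cord. They were labeled by Fluoro-Gold carried back from the lumbosacral enlargement, and the labeled cell bodies were cut one by one from sections of the thoracic cord by laser. The lesion was a complete low thoracic transection made 1 week after labeling, and tissue was taken post injury (p.i) from 4 animals each at 3 days and 1 week, and from 2 animals each at 2 weeks and 1 month. Uninjured animals made up the 4-day controls, the 2-week controls and the 1-month controls (n = 4 each), which were labeled but not transected. The study's methods list uninjured groups taken 10 days, 3 weeks and 5 weeks after labeling, without these names. The 3 control groups were matched to them in order of time, which is inferred and not stated by the labels. The animals at 3 days and 1 week were compared with the 4-day controls, although the animals at 1 week were taken 2 weeks after labeling. Values are log2 of the deposited intensity, and a level on one probe is never set against the level on another.

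Lysosomes are acidic organelles in which soluble hydrolases break down protein, glycan and lipid delivered by endocytosis, phagocytosis and autophagy. The hydrolases are made in the endoplasmic reticulum and carried to the lysosome, largely by mannose 6-phosphate receptors, while membrane proteins such as LAMP1 and LAMP2 line the organelle and transporters such as NPC1 return the products to the cell. Neurons depend on lysosomes throughout life, and loss of many of these genes causes a storage disease of the nervous system. Microglia and macrophages, which clear myelin and cell debris after a cord lesion, hold large numbers of lysosomes and express several cathepsins at high levels.

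Some facts of the whole series bear on every result. The 12 neuron marker genes gave summed intensities of 28146 to 30837 on the arrays at 3 days and 28756 to 31392 on those of the 4-day controls, so the captured RNA carried the markers of its label. Markers of microglia, astrocytes and oligodendrocytes were above the lowest deposited intensity on every array. Only 0.356% of all values lay at that intensity, so this alone does not show that these cells were present. Their levels were not low, however. Summed intensities of 6 astrocyte markers were 7554.1 to 9684.5 at 3 days and 5823.3 to 10292 in the 4-day controls. For 7 oligodendrocyte markers they were 9134.3 to 12372 and 8169.3 to 10754. How much of the captured RNA came from such cells was not tested. The 4-day control 3 stood apart, with the lowest level of its group for 28 of the 33 lysosomal genes and the lowest of all 24 arrays for 14. Array quality weights estimated in the fit were lowest for the 4-day controls 3 and 4 (0.328 and 0.477). Of the animals at 3 days, animal 1 was the highest of its group for 22 of the 33 genes, and of those at 1 week animal 1 was the highest for 29.

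Most of the lysosomal genes had their highest group mean 3 days p.i. Of the 33 genes, 25 did so, among them all 7 phagocyte-enriched genes, and 24 had their lowest in the 2-week controls. The order of groups was not counted over all tested probes, and these counts cannot be set against such a share. To show the profile of each class, the log2 level of each gene was taken relative to its mean over all 24 arrays and averaged over the genes of the class. This mean was 0.92, 0.98, 0.49 and 0.83 for the phagocyte-enriched genes in the 4 animals at 3 days, against 0.17, 0.35, -0.62 and 0.22 in the 4-day controls. All 4 injured animals were above all 4 controls, and the lowest control was control 3. In RNA of captured tissue, more cells of a type and more RNA per cell cannot be told apart. For the ubiquitous genes it was 0.43, 0.25, 0.17 and 0.22 at 3 days, against 0.03, 0.19, -0.37 and 0.11 in the 4-day controls, and here the groups overlapped. At 1 week the mean of the phagocyte-enriched genes lay between 0.04 and 0.56, within reach of the 4-day controls. At 2 weeks it was 0.00 and -0.13, against -0.57 to -0.42 in the 2-week controls, and at 1 month it was -0.19 and -0.08, against -0.47 to -0.42 in the 1-month controls, so that both late groups stood above their own controls.

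**Figure D1:**
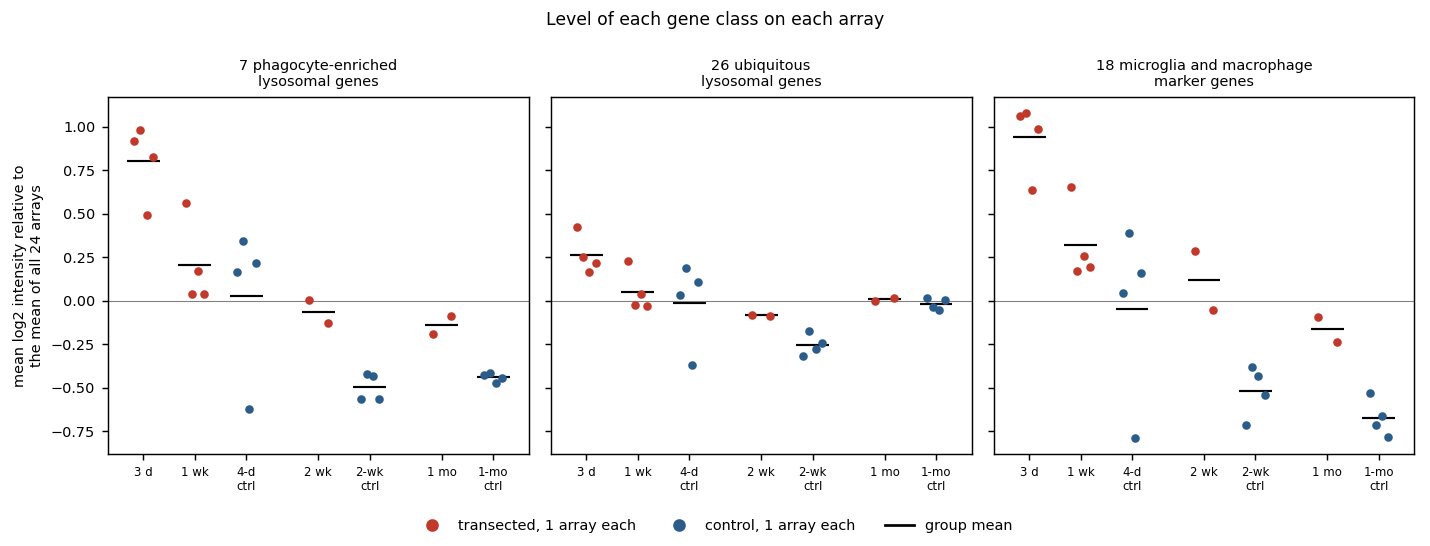
Mean log2 intensity relative to the mean of all 24 arrays (vertical axis) for the phagocyte-enriched lysosomal genes, the ubiquitous lysosomal genes and the microglia and macrophage marker genes, on each array of the 7 groups (horizontal axis; red points transected, blue points controls, black lines group means). The phagocyte-enriched genes lie between 0.49 and 0.98 at 3 days, the ubiquitous genes between 0.17 and 0.43 and the marker genes between 0.64 and 1.08; the 4-day control 3 is the lowest of its group in all 3 panels.

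At 3 days p.i, 9 of the 33 lysosomal genes were up-regulated and 0 were down-regulated against the 4-day controls (limma, Benjamini-Hochberg adjusted p under 0.05 over all probes). Of all tested probes 2.00% were higher and 0.886% lower by the same test. The 9 genes were 4 of the 7 phagocyte-enriched genes (Gpnmb, Ctsh, Ctsc and Lgmn) and 5 of the 26 ubiquitous genes (Grn, Npc1, Ctsb, Ctsl and Cd63). The median log2 difference was 0.77 over the phagocyte-enriched genes (range 0.45 to 1.21) and 0.27 over the ubiquitous genes (range -0.29 to 1.00), beside -0.01 over all tested probes. The sign was positive for 29 of the 33 genes, against 47.6% of all tested probes. In 7 genes (Ctsc, Lgmn, Ctsb, Npc1, Cd63, Scarb2 and Grn) every animal at 3 days was above every 4-day control, a pattern found in 2.75% of all tested probes. No test of one class against the other was made.

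These calls depended on which arrays were used. The count was 3 without animal 1 of the 3-day group (287 higher and 138 lower over all probes) and 3 without animal 2 (314 and 105). It was 5 without 4-day control 1 (361 and 161) and 0 with 4-day controls 1 and 2 alone (210 and 76). The count was also 0 when the 3-day and 4-day groups were fitted without the other arrays (21 and 1). In that fit 17 of 33 genes had an unadjusted p under 0.05, against 2273 of all 23240 probes. With all 12 controls pooled the count was 21, of which 1 (Ppt1) was lower. There the calls over all 23240 tested probes also grew, to 1208 higher and 909 lower, beside 465 higher and 206 lower with the 4-day controls alone. Without 4-day control 3 the count was 6, of which Ppt1 was lower (412 higher and 271 lower over all probes), and the median over the ubiquitous genes was 0.13. Cd63 and Grn passed in all 8 fits that left out 1 array of these groups, Lgmn in 7, Npc1, Ctsb and Gpnmb in 5, Ctsh in 3 and Ctsl and Ctsc in 2.

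**Figure D2:**
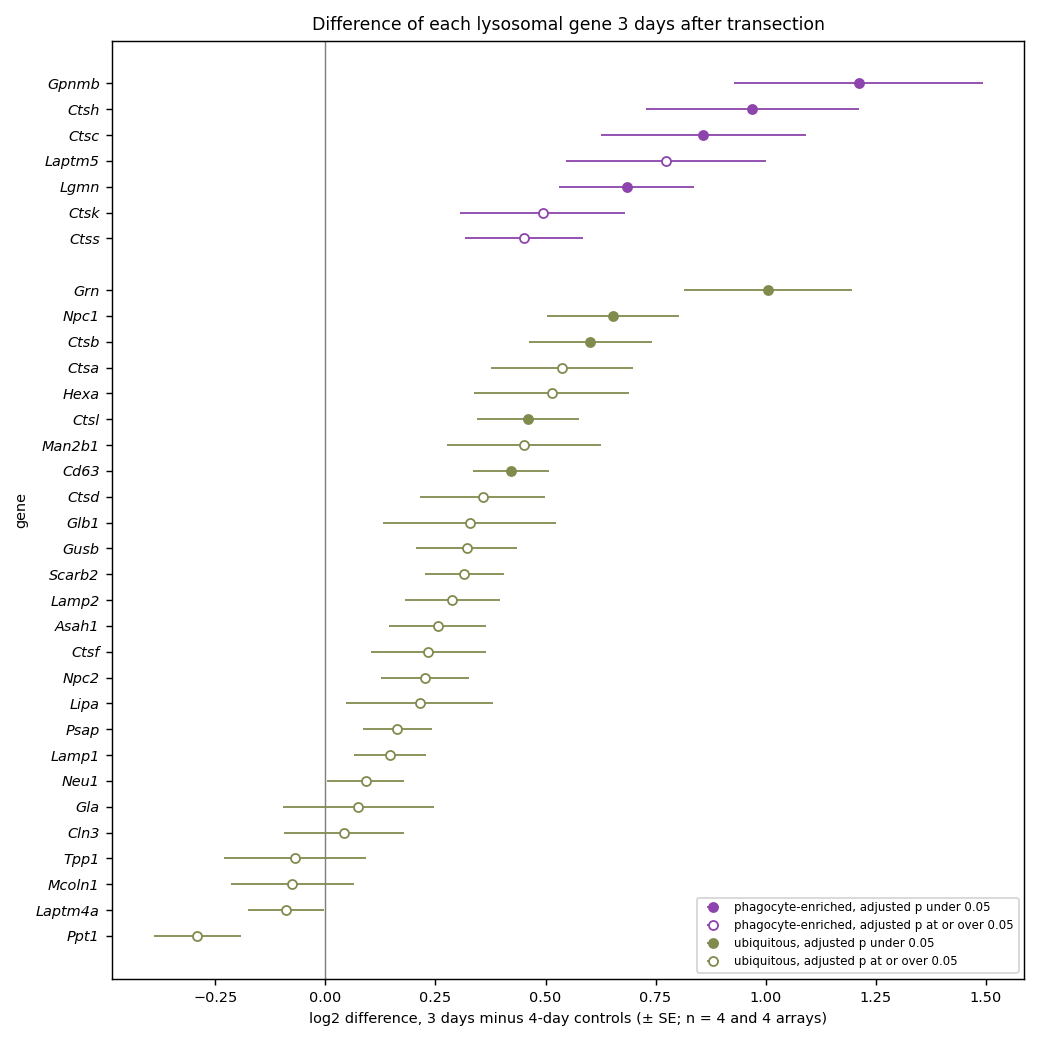
Log2 difference, 3 days minus 4-day controls (horizontal axis; n = 4 arrays in each group), for each of the 33 measured lysosomal genes (vertical axis), the phagocyte-enriched genes above and the ubiquitous genes beneath. Points are the fitted differences, bars ± 1 SE, and filled points passed the test; all 7 phagocyte-enriched genes lie at or above 0.45, and the ubiquitous genes run from Grn at 1.00 to Ppt1 at -0.29.

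Among the phagocyte-enriched genes, Gpnmb had the largest difference. Gpnmb encodes a glycoprotein of late endosomes and lysosomes that is induced in lipid-laden macrophages. Its log2 level was 9.76, 9.54, 9.01 and 9.33 at 3 days, against 8.64, 9.13, 7.05 and 7.98 in the 4-day controls, and it was 8.45, 8.11, 7.66 and 8.33 at 1 week. The 4-day controls spread widely and control 2 lay above the lowest animal at 3 days, so the groups overlapped. The log2 difference at 3 days was 1.21 (SE 0.28), a 2.32-fold change (adjusted p = 0.0207), while at 1 week it was -0.06. Later, Gpnmb was at 7.81 and 7.57 at 2 weeks, against 7.20, 7.31, 7.32 and 7.25 in the 2-week controls, and at 7.60 and 7.58 at 1 month, against 7.44, 7.16, 7.50 and 7.27 in the 1-month controls. Both late groups lay narrowly above all their controls.

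The 2 cysteine cathepsins of this class that rose were Ctsh, an aminopeptidase, and Ctsc, also named dipeptidyl peptidase 1, which activates the serine proteases stored in immune cell granules. Ctsh was at 9.94, 9.67, 9.26 and 9.67 at 3 days, against 8.77, 8.89, 7.74 and 9.26 in the 4-day controls, with 9.59, 9.06, 9.10 and 8.54 at 1 week. The third animal at 3 days and control 4 had the same level to 2 decimals, and control 3 lay about 1 log2 unit below the others. The log2 difference at 3 days was 0.97 (SE 0.24, adjusted p = 0.0306). Ctsc was at 7.69, 8.14, 7.44 and 7.50 at 3 days, against 6.997, 7.03, 6.10 and 7.21 in the 4-day controls, with 7.51, 6.69, 7.12 and 6.72 at 1 week. All animals at 3 days were above all controls (log2 difference 0.86, SE 0.23, adjusted p = 0.0495), the call closest to the threshold. In the late groups, Ctsh was at 8.80 and 8.54 at 2 weeks, against 7.92, 8.46, 8.49 and 8.47 in the 2-week controls, and at 8.75 and 8.71 at 1 month, against 8.50, 8.40, 8.48 and 8.25 in the 1-month controls. Ctsc was at 6.83 and 6.80 at 2 weeks, against 6.15, 6.54, 6.11 and 5.93 in the 2-week controls, and at 6.14 and 6.89 at 1 month, against 5.78, 6.34, 5.92 and 6.13 in the 1-month controls. Neither gene passed the test at these times, although only Ctsc at 1 month overlapped its controls.

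Lgmn encodes legumain, an asparaginyl endopeptidase that also trims other cathepsins to their mature form. It was at 9.90, 10.01, 9.64 and 9.83 at 3 days, against 9.24, 9.47, 8.53 and 9.41 in the 4-day controls, with no overlap, and at 9.55, 9.16, 9.40 and 9.13 at 1 week. The log2 difference at 3 days was 0.68 (SE 0.15, adjusted p = 0.0168). Lgmn was at 9.16 and 8.92 at 2 weeks, against 8.56, 8.77, 8.65 and 8.60 in the 2-week controls, and at 9.03 and 8.86 at 1 month, against 8.73, 9.06, 8.74 and 8.89 in the 1-month controls, the groups overlapping at 1 month but not at 2 weeks.

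The other 3 phagocyte-enriched genes had positive differences at 3 days that did not pass the test. Laptm5, a lysosomal membrane protein of blood-derived cells, had the largest of these. It was at 9.25, 8.93, 8.35 and 8.77 at 3 days, against 8.30, 8.40, 7.19 and 8.33 in the 4-day controls, with 8.64, 7.80, 8.38 and 8.10 at 1 week. Animal 3 at 3 days fell among controls 1, 2 and 4, and control 3 was more than 1 log2 unit lower (log2 difference 0.77, SE 0.23, adjusted p = 0.0708). Laptm5 was at 8.02 and 7.76 at 2 weeks, against 7.20, 7.37, 7.15 and 6.80 in the 2-week controls, and at 7.87 and 7.99 at 1 month, against 7.33, 7.35, 7.37 and 7.48 in the 1-month controls. It was above all controls at both late times, with the largest late log2 differences of any phagocyte-enriched gene (0.76, SE 0.28, and 0.54, SE 0.28). Ctss, which cleaves the invariant chain of class II molecules, differed by 0.45 (SE 0.13, adjusted p = 0.073) at 3 days, and Ctsk, a collagen-cleaving cathepsin of osteoclasts, by 0.49 (SE 0.19, adjusted p = 0.195).

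Among the 6 ubiquitous peptidases and their partners, 2 rose at 3 days. Ctsb, a cysteine cathepsin found in nearly all cells, was at 10.54, 10.40, 10.19 and 10.10 at 3 days, against 9.78, 10.02, 9.28 and 9.75 in the 4-day controls, with 10.09, 9.58, 9.93 and 9.89 at 1 week. The lowest animal at 3 days was above the highest control (log2 difference 0.60, SE 0.14, adjusted p = 0.02). Ctsb was at 9.73 and 9.43 at 2 weeks, against 9.21, 9.28, 8.92 and 9.08 in the 2-week controls, and at 9.91 and 9.62 at 1 month, against 9.55, 9.70, 9.52 and 9.58 in the 1-month controls. Of the late groups, the animals at 2 weeks lay apart from their controls and those at 1 month overlapped them. Ctsl, a related endopeptidase, was at 10.56, 10.47, 10.08 and 10.48 at 3 days, against 9.91, 10.19, 9.63 and 10.02 in the 4-day controls, with 10.14, 10.06, 9.94 and 9.72 at 1 week. Animal 3 at 3 days fell below control 2, so the groups overlapped (log2 difference 0.46, SE 0.12, adjusted p = 0.0321). Ctsl was at 10.07 and 9.99 at 2 weeks, against 9.71, 9.70, 9.95 and 9.94 in the 2-week controls, and at 9.78 and 9.75 at 1 month, against 9.75, 9.79, 9.82 and 9.73 in the 1-month controls, where the levels were nearly equal.

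Ctsa and Ctsd did not pass. Ctsa encodes protective protein, a carboxypeptidase that stabilizes beta-galactosidase and neuraminidase. It was at 9.75, 9.32, 8.90 and 9.21 at 3 days, against 8.82, 8.96, 8.32 and 8.93 in the 4-day controls, with 9.003, 8.30, 8.87 and 8.75 at 1 week. Animal 3 at 3 days lay among the controls (log2 difference 0.54, SE 0.16, adjusted p = 0.0767). Ctsa was at 8.57 and 8.53 at 2 weeks, against 8.43, 8.28, 8.24 and 8.34 in the 2-week controls, and at 8.72 and 8.67 at 1 month, against 8.50, 8.60, 8.46 and 8.73 in the 1-month controls, the groups overlapping at 1 month. Ctsd, the main aspartyl protease of the lysosome, was at 9.08, 9.07, 8.92 and 8.90 at 3 days, against 8.87, 8.96, 7.99 and 8.72 in the 4-day controls, with 8.90, 8.69, 8.82 and 8.79 at 1 week. Control 2 lay within the range of the injured animals and control 3 far under it (log2 difference 0.36, SE 0.14, adjusted p = 0.224). Ctsd was at 8.56 and 8.50 at 2 weeks, against 8.16, 8.57, 8.17 and 8.25 in the 2-week controls, and at 8.83 and 8.76 at 1 month, against 8.77, 8.78, 8.79 and 8.80 in the 1-month controls, the groups overlapping each time. Of the remaining peptidases, the cysteine cathepsin Ctsf differed by 0.23 at 3 days, and Tpp1, which removes tripeptides from protein ends and is lost in a childhood ceroid lipofuscinosis, by -0.07.

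None of the 6 measured glycosidases passed the test at 3 days, and all 6 had positive differences (median 0.32). Hexa, the alpha chain of the hexosaminidase that degrades GM2 ganglioside, had the largest. Its level was 8.93, 8.89, 8.64 and 9.07 at 3 days, against 8.35, 8.93, 7.80 and 8.39 in the 4-day controls, and it was 8.85, 8.65, 8.39 and 8.32 at 1 week. Control 2 lay within the range of the injured animals and control 3 far under it (log2 difference 0.51, SE 0.18, adjusted p = 0.138). Hexa was at 8.47 and 8.37 at 2 weeks, against 7.91, 8.22, 7.95 and 8.18 in the 2-week controls, and at 8.48 and 8.94 at 1 month, against 8.21, 8.06, 8.03 and 8.44 in the 1-month controls. Both animals were above all controls at each late time, and the log2 difference at 1 month (0.53, SE 0.22) was the only one of the 33 at that time with an unadjusted p under 0.05. The other 5 glycosidases differed at 3 days by 0.45 (Man2b1, alpha-mannosidase), 0.33 (Glb1, beta-galactosidase), 0.32 (Gusb, beta-glucuronidase), 0.09 (Neu1, neuraminidase) and 0.07 (Gla, alpha-galactosidase).

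Of 6 genes of lipid handling, 1 rose at 3 days. This was Npc1, the membrane protein that exports cholesterol from the lysosome. It was at 9.61, 9.14, 8.94 and 8.84 at 3 days, against 8.23, 8.82, 8.45 and 8.41 in the 4-day controls, and at 8.51, 8.36, 8.48 and 8.21 at 1 week. The lowest animal at 3 days was just above the highest control, and here control 3 was not the lowest. The log2 difference at 3 days was 0.65 (SE 0.15, adjusted p = 0.0185). Npc1 was at 8.29 and 8.53 at 2 weeks, against 8.22, 8.26, 8.12 and 8.21 in the 2-week controls, and at 8.76 and 8.47 at 1 month, against 8.67, 8.34, 8.80 and 8.34 in the 1-month controls, the last 2 groups overlapping. Its soluble partner Npc2, which hands cholesterol to NPC1, differed by 0.23 at 3 days (SE 0.10, adjusted p = 0.289). Asah1 (acid ceramidase) differed by 0.26, Lipa (acid lipase) by 0.21 and Psap, the precursor of the saposins that present lipids to hydrolases, by 0.16. Ppt1, which removes palmitate from proteins, had the lowest difference of the 33 genes at -0.29 (SE 0.10, adjusted p = 0.13).

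Of the 7 ubiquitous membrane proteins, Cd63 rose at 3 days. Cd63 encodes a tetraspanin of late endosomes, lysosomes and secreted vesicles. It was at 11.91, 11.73, 11.58 and 11.81 at 3 days, against 11.38, 11.55, 11.07 and 11.35 in the 4-day controls, and at 11.49, 11.38, 11.38 and 11.38 at 1 week. All injured animals at 3 days were above all controls, and the log2 difference of 0.42 had a small error (SE 0.09, adjusted p = 0.00848). Cd63 was at 11.38 and 11.34 at 2 weeks, against 11.10, 11.29, 11.17 and 11.16 in the 2-week controls, and at 11.37 and 11.34 at 1 month, against 11.38, 11.24, 11.22 and 11.21 in the 1-month controls. The gap to the controls at 2 weeks was narrow, and at 1 month the groups overlapped.

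Lamp1, the most used marker of lysosomal membrane, was at 10.18, 10.08, 9.92 and 9.91 at 3 days, against 9.96, 9.95, 9.63 and 9.97 in the 4-day controls, with 10.03, 9.86, 10.03 and 9.83 at 1 week. The groups overlapped and the log2 difference was 0.15 (SE 0.08, adjusted p = 0.464). Lamp1 was at 9.80 and 9.83 at 2 weeks, against 9.59, 9.81, 9.64 and 9.69 in the 2-week controls, and at 9.76 and 9.80 at 1 month, against 9.72, 9.80, 9.74 and 9.71 in the 1-month controls, again with overlap. Scarb2, which carries glucocerebrosidase to the lysosome, differed at 3 days by 0.32 (SE 0.09, adjusted p = 0.0621) with no overlap between groups. Lamp2, a receptor for chaperone-mediated autophagy in one of its forms, differed by 0.29 (SE 0.11, adjusted p = 0.189), Cln3 by 0.04, the calcium channel Mcoln1 by -0.08 and Laptm4a by -0.09.

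Grn, the precursor of the granulins, a secreted protein that is also delivered to lysosomes and is made by both microglia and neurons, had the smallest adjusted p of the 33 genes. It was at 9.86, 9.89, 9.41 and 9.67 at 3 days, against 9.06, 9.12, 7.94 and 8.70 in the 4-day controls, and at 9.34, 8.96, 9.26 and 8.99 at 1 week. The groups at 3 days did not overlap, and the log2 difference was 1.00 (SE 0.19), a 2.01-fold change (adjusted p = 0.00445). Grn was at 8.99 and 8.71 at 2 weeks, against 7.93, 8.21, 8.47 and 7.89 in the 2-week controls, and at 8.40 and 8.38 at 1 month, against 8.26, 8.30, 8.16 and 8.34 in the 1-month controls. It was above all controls at both late times, by a log2 difference of 0.73 (SE 0.23) at 2 weeks and 0.12 (SE 0.23) at 1 month. Over the average of the 4 times Grn was the 1 gene of 33 that passed (log2 difference 0.57, SE 0.12, adjusted p = 0.0277), where 0.370% of all tested probes were higher and 0.0344% lower. This call was lost when 4-day control 4, 2-week control 1 or 1-month control 3 was left out. In that order, all probes gave 75 higher and 4 lower, 63 and 5, and 65 and 5, beside 86 and 8 in the main fit. It was also lost without the 2-week animal numbered 3 in its label or without either 1-month animal, fits that left 1 animal in a group. The count of genes that passed was 5 without 4-day control 2, 3 without 3-day animal 3 and 2 without 1-week animal 2. The call of Grn was also lost with the methods' test of 2 factors, with replicate numbers as a block and with 4-day controls 1 and 2 alone. Among all probes, 139 were higher and 18 lower without 4-day control 2. The numbers were 148 and 21 without 3-day animal 3, and 89 and 8 without 1-week animal 2.

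**Figure D3:**
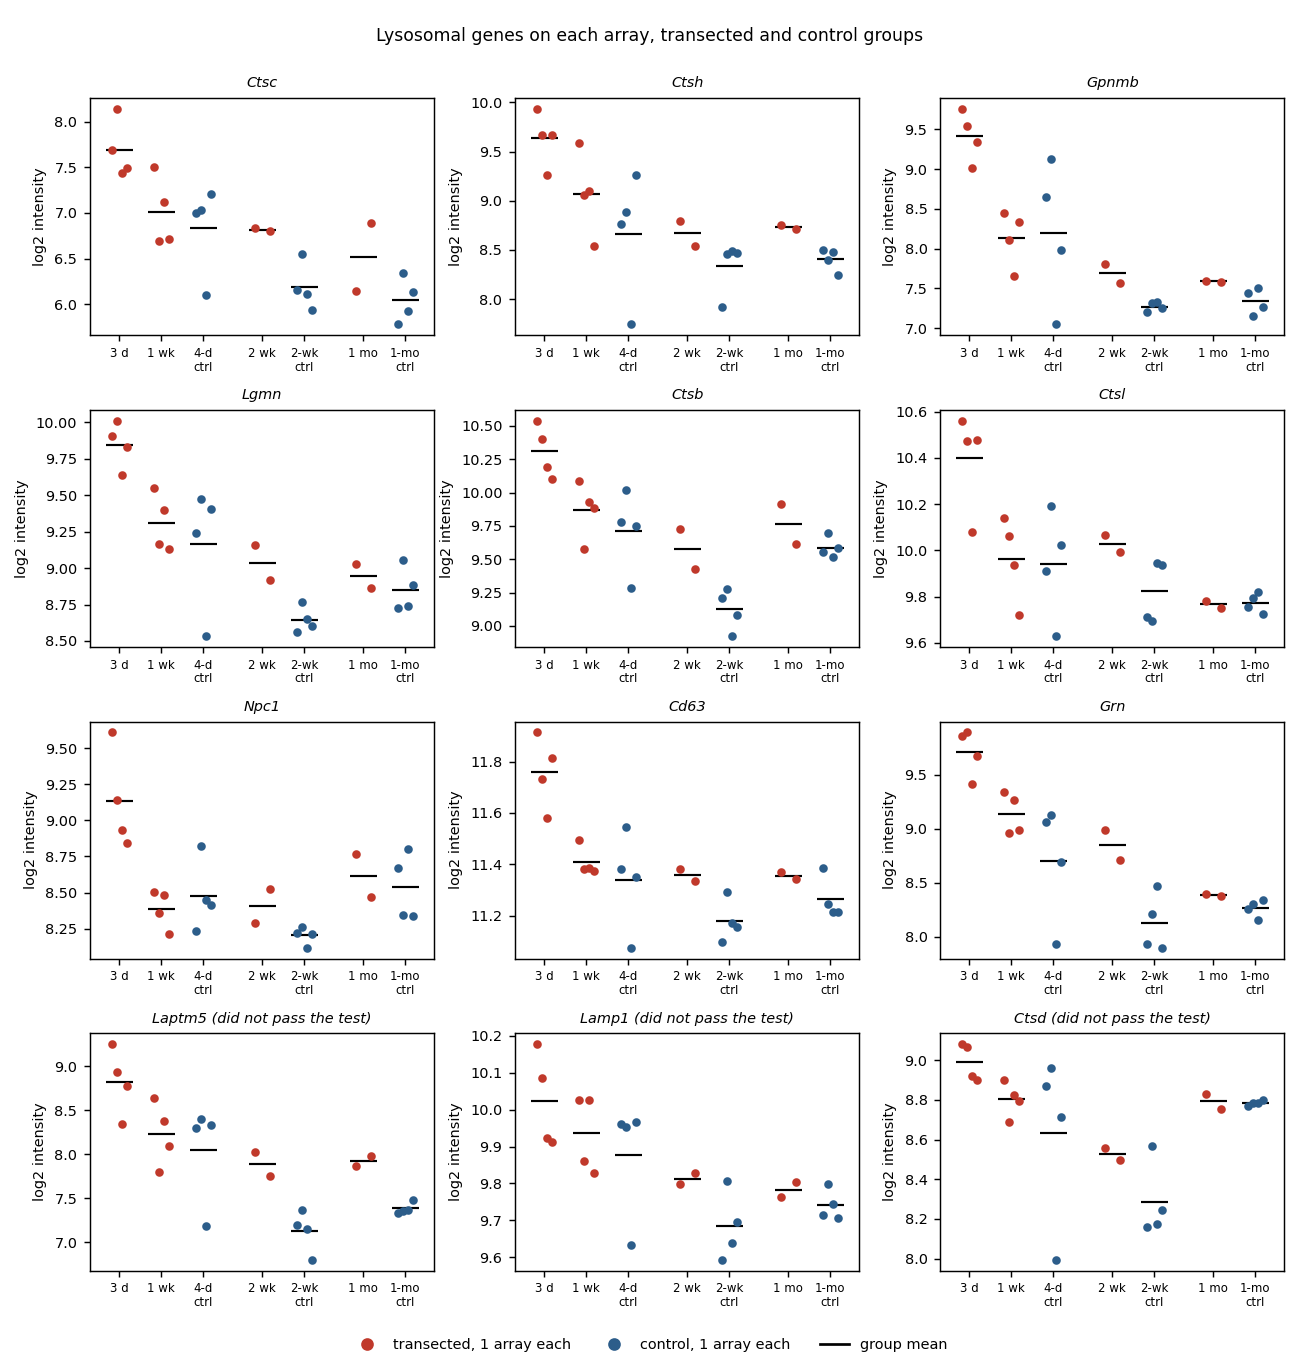
Log2 intensity on each array (vertical axes, which differ between panels and do not start at 0) of the 9 lysosomal genes that rose at 3 days and of Laptm5, Lamp1 and Ctsd, in the 7 groups (horizontal axis; red points transected, blue points controls, black lines group means; n = 4, 4 and 4 for 3 days, 1 week and 4-day controls, 2 and 4 at each later time). Gpnmb at 3 days lies between 9.01 and 9.76 and its 4-day controls between 7.05 and 9.13, control 3 being the lowest.

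Microglia and macrophage markers moved with the lysosomal genes. Of 18 measured of 19 marker genes, 11 rose and 0 fell at 3 days (median log2 difference 0.93), led by Adgre1 (log2 difference 1.90, adjusted p = 0.00142), Itgam (1.77, adjusted p = 0.000117) and C1qc (1.65, adjusted p = 0.000565). Their summed intensity was 9101 to 12286 at 3 days, 6484.1 to 9087.9 at 1 week, 5302.3 to 6943.1 at 2 weeks and 4683.6 to 5188.6 at 1 month, against 2898.5 to 7604 in the 4-day controls, 3177 to 4139.1 in the 2-week controls and 3003.7 to 3634.3 in the 1-month controls. The lowest 4-day control was again control 3, and the part of these cells in the lysosomal differences was not tested. No marker was at the lowest deposited intensity on any array, which also held for nearly all values of the series. Of 8 markers of blood monocytes 1 rose at 3 days (Cd163, log2 difference 0.52), of 7 of oligodendrocytes 1 (Cldn11, 0.78), of 5 of lymphocytes 1 (Cd4, 1.25) and of 12 of neurons 1 (Tubb3, 0.34), while Rbfox3, also of the neuron list, fell by 0.40 on the log2 scale. The rest of the lymphocyte list did not pass (Cd3e -0.03, Cd3d -0.19, Cd8a 0.33 and Cd79b 0.09). Cd4 alone therefore does not show lymphocytes. None of the 6 astrocyte, 5 endothelial or 6 fibroblast markers passed. By the same test 2.00% of all tested probes were higher and 0.886% lower.

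Promoters are printed for genes that moved together at 3 days and for others that did not pass, to show the motifs in each. They were the windows from 250 bases before to 50 bases after the start of each gene, taken from RefSeq (build GRCr8) and found for 28 of the 33 genes, the exceptions being Ctsb, Hexa, Asah1, Ppt1 and Psap. CACGTG is an E-box, the core of the element bound by TFEB and its relatives, which control many lysosomal genes. GAGGAA is a purine-rich sequence of the kind bound by PU.1, a factor of myeloid cells. Both strands were searched, and no matches overlapped in these promoters. CACGTG was present in 0 of 7 promoters of phagocyte-enriched genes and in 7 of 21 of ubiquitous genes (33.3%), against 6.65% of 27457 promoters of all genes. GAGGAA was present in 6 of 7 promoters of phagocyte-enriched genes (all but Lgmn) and in 7 of 21 of ubiquitous genes, against 27.5% of all promoters. Of the 8 genes up-regulated at 3 days with a promoter, 1 held CACGTG (Cd63) and 5 held GAGGAA (Ctsc, Ctsh, Gpnmb, Cd63 and Grn). The windows below are the 250 bases before the start site, with matches to either motif in capitals (TTCCTC is GAGGAA on the other strand). A match describes the letters only.
Gpnmb, chr4:79340878-79341127, plus strand, 1 GAGGAA: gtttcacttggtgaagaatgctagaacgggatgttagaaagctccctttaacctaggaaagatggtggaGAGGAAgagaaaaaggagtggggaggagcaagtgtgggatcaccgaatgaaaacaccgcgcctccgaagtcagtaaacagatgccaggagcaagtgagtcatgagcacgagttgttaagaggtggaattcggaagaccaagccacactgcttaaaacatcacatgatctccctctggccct
Ctsh, chr8:99488506-99488755, plus strand, 1 GAGGAA in this window and 1 past the start site: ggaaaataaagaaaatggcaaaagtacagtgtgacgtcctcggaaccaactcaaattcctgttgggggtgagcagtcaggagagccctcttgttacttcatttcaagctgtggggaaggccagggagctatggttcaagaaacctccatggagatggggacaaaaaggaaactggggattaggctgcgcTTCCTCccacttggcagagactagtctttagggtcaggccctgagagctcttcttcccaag
Ctss, chr2:185775146-185775395, plus strand, 1 GAGGAA near the start site: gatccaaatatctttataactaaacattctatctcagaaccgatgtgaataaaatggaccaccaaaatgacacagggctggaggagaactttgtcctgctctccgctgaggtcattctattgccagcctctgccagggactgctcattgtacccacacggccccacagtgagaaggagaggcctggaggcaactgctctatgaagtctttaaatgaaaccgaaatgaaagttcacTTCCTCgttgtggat
Grn, chr10:87887584-87887833, plus strand, 2 GAGGAA: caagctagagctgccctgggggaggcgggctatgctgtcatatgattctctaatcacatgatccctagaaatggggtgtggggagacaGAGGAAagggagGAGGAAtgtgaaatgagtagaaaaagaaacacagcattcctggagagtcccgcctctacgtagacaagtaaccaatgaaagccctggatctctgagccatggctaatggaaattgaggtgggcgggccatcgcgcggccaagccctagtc
Cd63, chr7:1921894-1922143, plus strand, 1 of each motif: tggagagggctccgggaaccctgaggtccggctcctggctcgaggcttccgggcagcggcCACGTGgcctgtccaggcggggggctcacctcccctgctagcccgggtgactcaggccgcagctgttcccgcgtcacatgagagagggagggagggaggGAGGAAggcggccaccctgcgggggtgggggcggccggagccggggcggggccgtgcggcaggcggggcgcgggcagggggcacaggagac
Lamp1, chr16:83075064-83075313, minus strand, 5 CACGTG: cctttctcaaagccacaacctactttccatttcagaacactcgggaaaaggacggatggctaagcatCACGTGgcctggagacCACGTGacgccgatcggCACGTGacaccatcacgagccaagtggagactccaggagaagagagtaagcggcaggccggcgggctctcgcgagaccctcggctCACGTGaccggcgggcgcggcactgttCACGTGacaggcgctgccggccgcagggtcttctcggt
Cln3, chr1:190597930-190598179, minus strand, 2 CACGTG: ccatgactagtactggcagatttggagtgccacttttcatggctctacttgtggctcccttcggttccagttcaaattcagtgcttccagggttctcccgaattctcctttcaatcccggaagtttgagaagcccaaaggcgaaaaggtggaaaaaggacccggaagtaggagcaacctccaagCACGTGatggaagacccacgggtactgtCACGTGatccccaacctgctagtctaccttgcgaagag

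Lamp1 held the most CACGTG matches (5) and had a log2 difference of 0.15 at 3 days. Cln3, Ctsd and Mcoln1 held 2 each, with log2 differences of 0.04, 0.36 and -0.08. The other genes with CACGTG besides Cd63 were Ctsf (1 match, log2 difference 0.23) and Glb1 (1 match, log2 difference 0.33), and none of these 6 genes passed the test. Gpnmb, Grn, Ctsh and Cd63, printed for their GAGGAA, rose at 3 days, while Ctss, whose match began at position -15 from the start site, did not pass. Ctss was not the only such gene. GAGGAA was present in 8 of the 20 promoters of genes that did not pass, beside 5 of 8 of those that rose. A relation of either motif to the differences was not tested.

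At 1 week the differences lay nearer to 0. There 0 of the 33 genes passed the limma test against the 4-day controls, as did 0 of all probes, with 2 genes (Ctss and Grn) at an unadjusted p under 0.05 (4.44% of all tested probes) and 0 at that level by the methods' t-test. The median log2 difference was 0.17 over the phagocyte-enriched genes and 0.06 over the ubiquitous genes, against 0.77 and 0.27 at 3 days. Set directly against the animals at 1 week, those at 3 days had higher levels of 3 genes (1.93% of all tested probes were higher and 0.542% lower): Npc1 (log2 difference 0.74, SE 0.15, adjusted p = 0.0099), Gpnmb (1.27, SE 0.28, adjusted p = 0.0172) and Cd63 (0.35, SE 0.09, adjusted p = 0.0312). Ctsl stood just outside (0.43, adjusted p = 0.0503), and 0 genes were lower. The 2 groups also differed in time after labeling, which cannot be told apart from time after injury here. The count was 1 without 3-day animal 1, without 3-day animal 2 or without 1-week animal 4, and 6 without 3-day animal 3. In the same order, 261, 276, 256 and 575 of all probes were higher and 77, 62, 62 and 241 lower. Ctss differed by 0.13 (SE 0.13) between the times, with levels of 10.96 to 11.28 at 1 week, against 10.24 to 10.99 in the 4-day controls.

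At 2 weeks 0 of the 33 genes passed the limma test against the 2-week controls, as did 0 of all probes. In that fit 7 genes had an unadjusted p under 0.05 (Grn, Laptm5, Ctsb, Scarb2, Ctsc, Ctss and Asah1), against 5.29% of all tested probes. By the methods' t-test 13 genes reached that level, with no share of all probes to set beside them. The sign was positive for 29 of 33 genes, against 49.5% of all tested probes, and in 18 genes both transected animals were above all 4 controls, against 9.90% of all tested probes. These 18 were 6 of 7 phagocyte-enriched genes (all but Ctsk) and 12 of 26 ubiquitous genes, and 0 genes were below all controls (7.82% of all tested probes). Median log2 differences were 0.39 over the phagocyte-enriched genes and 0.19 over the ubiquitous genes. Microglia and macrophage markers had a median difference of 0.72 in the same comparison, and their part in it was not tested.

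At 1 month 0 of 33 genes passed the limma test against the 1-month controls, as did 0 of all probes. In that fit 1 gene (Hexa) had an unadjusted p under 0.05, against 3.44% of all tested probes. By the methods' t-test 4 genes reached that level, again with no share of all probes beside them. All 7 phagocyte-enriched genes had positive differences (median 0.24, range 0.09 to 0.54), and in 4 of them (Ctsh, Ctss, Gpnmb and Laptm5) both animals were above all controls. Of the ubiquitous genes (median 0.03), Hexa, Tpp1, Npc2 and Grn were above all controls and Cln3, Laptm4a and Mcoln1 were below all controls, so 8 genes were above, against 5.93% of all tested probes, and 3 were below, against 7.55%. The largest negative difference was that of Cln3, a membrane protein lost in juvenile ceroid lipofuscinosis (-0.34, SE 0.17). Marker genes of microglia and macrophages had a median difference of 0.51. With 2 transected animals at each late time, a difference had to be large to pass.

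**Figure D4:**
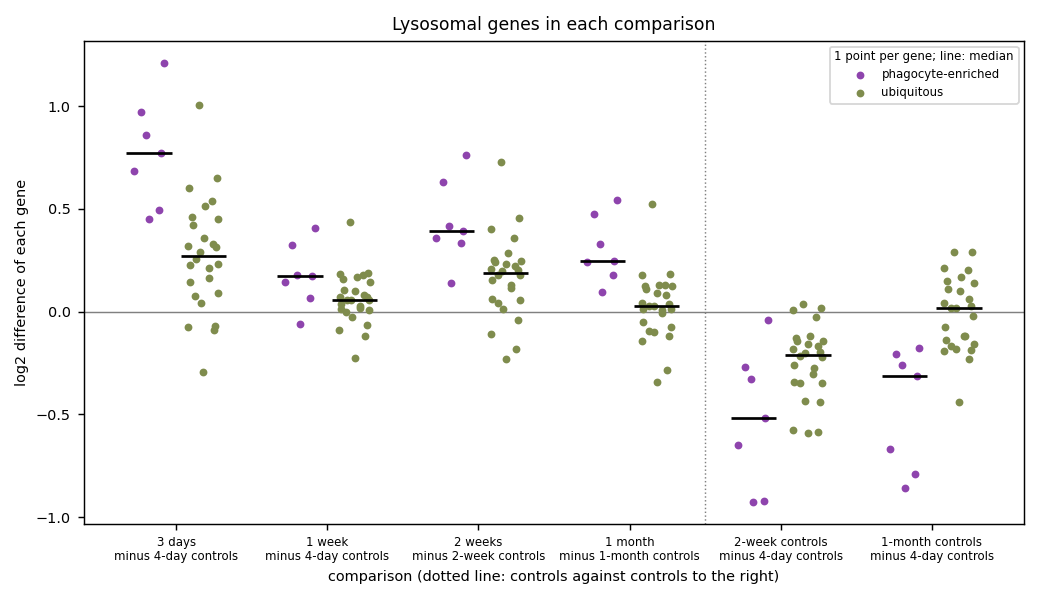
Log2 difference of each measured lysosomal gene (vertical axis; 1 point per gene, purple phagocyte-enriched, green ubiquitous, black lines medians) in the 4 comparisons of transected animals with controls and in 2 comparisons between control groups (horizontal axis). The median of the phagocyte-enriched genes is 0.77 at 3 days, 0.17 at 1 week, 0.39 at 2 weeks and 0.24 at 1 month, and -0.52 and -0.31 for the 2-week and the 1-month controls against the 4-day controls.

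The control groups differed among themselves, which bears on each comparison above. For the 2-week controls against the 4-day controls 30 of 33 genes had negative log2 differences (median -0.52 over the phagocyte-enriched genes and -0.21 over the ubiquitous genes, with 55.2% of all tested probes positive). The largest differences were those of Gpnmb (-0.93, SE 0.28) and Laptm5 (-0.92, SE 0.23). None passed the limma test (14 at an unadjusted p under 0.05, against 14.3% of all tested probes, and 5 by the methods' t-test), but without 4-day control 3 the count was 16, all lower in the 2-week controls, while over all 23240 probes 402 were higher and 886 lower. For the 1-month controls against the 4-day controls all 7 phagocyte-enriched genes again had negative differences (median -0.31), while the ubiquitous genes had a median of 0.02. Here 0 of 33 genes passed, as did 0.00430% of all tested probes as lower (7 at an unadjusted p under 0.05, against 13.2% of all tested probes, and 1 by the methods' t-test), and the count was 4, all lower, without 4-day control 3 (2 higher and 78 lower over all probes). The microglia and macrophage markers had median differences of -0.43 and -0.55 in these comparisons, and their part was not tested. By their labels the control groups differed only in time.

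Beyond the list, other genes of the lysosomal pathway were taken in 7 groups. Of 19 further lysosomal enzymes measured, 3 rose at 3 days and 0 fell (median log2 difference 0.26). These were Naaa, an acid amidase (log2 difference 0.91, adjusted p = 0.0164), Galc, the galactosylceramidase that degrades myelin lipid (0.83, adjusted p = 0.027), and Dpp7, a dipeptidyl peptidase (0.65, adjusted p = 0.0192). Of 17 further membrane proteins 2 rose, Cd68, the macrophage marker of late endosomes (1.62, adjusted p = 0.0169), and Slc29a3, a nucleoside transporter (0.43, adjusted p = 0.0292). Of 15 regulators 1 rose, Tfec, the TFEB relative of macrophages (1.51, adjusted p = 0.00188). Of 7 genes listed as cathepsin inhibitors 1 rose, Serpina3n (1.69, adjusted p = 0.00013), whose action on the cathepsins described here was not tested. The others did not pass (Cst3 0.07, Cst6 -0.42, Cst7 0.05, Csta -0.004, Cstb 0.07 and Stfa3 -0.12). None of 20 subunits of the proton pump that acidifies lysosomes (median -0.02), 21 genes of sorting to the lysosome (median 0.04) or 21 autophagy genes (median -0.03) passed the limma test at 3 days. Beside these lists, 2.00% of all tested probes were higher and 0.886% lower, so 0 calls in lists of this size lies near that share.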

How the data were processed

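TPS neurons of 24 animals were measured on 24 arrays. The authors normalized the arrays by RMA with quantile normalization in GeneSpring GX. What they deposited is intensity on a linear scale from 17 to 7979.81, with array medians of 73.6 to 81.3. Their log2 was used here. The raw images were not used, so no limit of detection could be set. Precision is limited by how many arrays each group has. Probe names came from the platform annotation (1 symbol for 15097 of 27342 probes). Probes above the lowest 15% of mean log2 (5.05, an intensity of 33.2) were kept.

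Group means were fitted to 23240 probes with limma 3.58.1 in R 4.3.3 (prior degrees of freedom 3.64, residual 17), with Benjamini-Hochberg adjustment within each comparison over all probes and a threshold of 0.05. All adjusted p values come from this fit and are two-sided. On simulated data for 3 days against 4-day controls, 53% of log2 changes of 0.5 and 91% of changes of 1 were recovered, with 8 false calls. The simulated noise was independent between probes and arrays. It held no array that stood apart from its group as 4-day control 3 did, so these rates need not hold for the real arrays. No pair of arrays was a duplicate. Each array is 1 animal.

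Members and gene lists were chosen with earlier results of these data known. Array values are given for members that passed a comparison with controls, for Lamp1 and Ctsd, and for the 3 other members with the largest differences at 3 days, and of other lists for up to 3 genes per direction. Alternatives changed the filter, the moderation, array weights, cyclic loess, the controls, the arrays, the test and a block of replicate numbers. "The methods' t-test" is an equal-variance test of 2 groups after the study's methods. PCR and staining data were not analysed here. Figures were drawn with matplotlib 3.10.9 in Python 3.11.15.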

Additional observations from a re-analysis of the deposited data

Results flagged for a closer look

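In 4 of 70 groups of 4 arrays examined among the 14 genes shown array by array, 1 array stood far from the other 3, where chance gives about 1 in 20. Cd63 at 1 week was highest in animal 1 (11.49, next 11.38). Ctsh in the 2-week controls was lowest in control 1 (7.92, next 8.46). In the 4-day controls, control 3 was lowest for Laptm5 (7.19, next 8.30) and for Lamp1 (9.63, next 9.95).

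Levels differed between the transected animals at 3 days and those at 1 week for 3 genes in the limma fit. The animals at 1 week had no controls of the same time after labeling, so time after injury and time after labeling cannot be told apart. The log2 difference, 3 days minus 1 week, was 0.74 for Npc1 (adjusted p = 0.0099), 1.27 for Gpnmb (adjusted p = 0.0172) and 0.35 for Cd63 (adjusted p = 0.0312).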

How the results depend on the processing

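All 14 genes shown array by array kept a positive difference at 3 days under each of the 20 alternatives run for them, though calls were lost. All but Lamp1 and Ctsd were chosen by their calls or differences, and the alternatives reused most of the same arrays. The kept sign therefore followed largely from that choice. The 9 genes that passed at 3 days became 0 with the 2 groups fitted alone, 0 by the methods' t-test, 0 with only the 4-day controls 1 and 2 kept (chosen after seeing the data) and 21 with all 12 controls pooled. In the same order, all probes gave 21 higher and 1 lower, 0 and 0, 210 and 76, and 1208 and 909, beside 465 and 206 in the main fit. Leaving out 1 array gave 3 to 13, with 3 without 3-day animal 1 or 2 and 5 without 4-day control 1. Among all probes it gave 287 to 673 higher and 104 to 383 lower. For 3 days minus 1 week, 3 became 8 with array quality weights, 6 with cyclic loess, 1 with the groups fitted alone, 0 by the t-test and 1 to 6 when 1 array was left out. All probes gave 448 higher and 126 lower in the main fit of these groups. They gave 558 and 205 with array quality weights, 513 and 154 with cyclic loess, 222 and 37 with the groups alone and 0 by the t-test. For the average of the 4 times, 1 became 3 with array quality weights, 2 with cyclic loess, 2 with pooled controls, 2 with 1 probe for each gene, 0 with the replicate block, 0 by the methods' 2-factor ANOVA, 0 with 4-day controls 1 and 2 only and 0 to 5 when 1 array was left out. For that average, all probes gave 118 higher and 16 lower with array quality weights, 99 and 8 with cyclic loess and 107 and 13 with pooled controls. They gave 75 and 6 with the replicate block, 103 and 26 by the 2-factor ANOVA and 25 and 3 with 4-day controls 1 and 2 only. Between 2-week and 4-day controls, 0 became 11 lower genes with array quality weights, 10 with 4-day controls 1 and 2 only and 0 to 16 when 1 array was left out, and between 1-month and 4-day controls 3, 3 and 0 to 4. The 2-week controls had 200 higher and 587 lower of all probes with array quality weights, and 114 and 389 with 4-day controls 1 and 2 only. The 1-month controls had 55 and 93, then 44 and 90. Lysosomal counts at 1 week, 2 weeks and 1 month stayed at 0 under every alternative with 2 or more arrays per group. Some of these alternatives did give calls among all 23240 probes. At 1 week 7 were higher and 5 lower with pooled controls. At 2 weeks 36 were higher and 1 lower with array quality weights, and at 1 month 0 and 2 by the methods' t-test. Beside so few calls, a lysosomal count of 0 lies near the share of all probes. The median of the phagocyte-enriched genes at 3 days, 0.77, became 1.17 with pooled controls, 0.53 with 4-day controls 1 and 2 only and 0.59 to 0.93 when 1 array was left out, and that of the ubiquitous genes, 0.27, became 0.13 to 0.34 when 1 array was left out, with 0.13 without 4-day control 3. The cause of these shifts was not tested. Replicate numbers are shared between groups but name no pairing of animals (mean correlation of deviations 0.02 over 55 pairs of equal number, -0.01 over 189 others). With the replicate block 12 genes passed at 3 days (540 higher and 219 lower over all probes) and 4 between 3 days and 1 week (317 and 78). Each gene had 1 probe, so the median over probes gave the same values.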
